A study of Mus musculus with 4 samples.

Results

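The unannotated transcripts of Asxl1, Kmt2c, Chd9 and Mllt10, which encode chromatin regulators of blood cells, were followed in granulocyte-monocyte progenitors of wild-type and MST1-deficient mice. Rows of 4 transcript lists were taken where the gene number was that of Asxl1 (228790), Kmt2c (231051), Chd9 (109151) or Mllt10 (17354). They gave 18 transcripts of 8219 in the series, and 4 genes of 5058 with an NCBI gene number. The 4 genes were selected on measured values of the comparison between genotypes, the levels and shares of these same transcripts. Their differences between genotypes are therefore a description and carry no test of their own.

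The wild-type group and the MST1-deficient group had 2 libraries apiece, each a pool of progenitors sorted from the bone marrow of 10 mice, kept in medium with serum and given no drug. MST1 was taken to be the Hippo pathway kinase that Stk4 encodes, since the labels do not name the gene. How the deficiency was made, and the age, sex and strain of the mice, are not in the labels. The lists cover only transcripts outside the annotation that the submitters used, so a level below leaves out the annotated transcripts of the same gene. A transcript missing from 1 list and present in another was set to 0.

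Chromatin regulators decide which genes a progenitor can switch on as it matures into a neutrophil or monocyte. Asxl1 is a partner of the deubiquitinase Bap1, which removes ubiquitin from histone H2A, and truncating mutations of ASXL1 are common in human myeloid neoplasms. Kmt2c, also called Mll3, methylates histone H3 at enhancers and acts as a suppressor of myeloid leukaemia in mice. Chd9 is a chromodomain helicase, a remodeller that uses ATP. Mllt10, also called Af10, is a cofactor of the histone methyltransferase Dot1l and is fused to other genes in some leukaemias.

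The libraries listed between 6517 and 6774 transcripts and held between 928977 and 1079382 estimated counts in them, and library totals implied by the FPKM values ran from 6913792 to 8518856. No unannotated transcript of Stk4 was listed (0 in the series), so the targeted gene could not be checked and the groups rest on the labels. Of 19 markers of granulocyte-monocyte progenitors, 4 were listed (Gfi1, Csf3r, Kit and Fcgr2b, of which Kit reached 0.05 FPKM at most), with a summed level of 94.4 to 121 FPKM in the wild-type pools and 116 to 120.4 in the MST1-deficient pools; Mpo, Elane, Prtn3 and Cebpa had no listed transcript. Markers of eosinophils, basophils and mast cells (6 of 13 listed, Prg2 and Fcer1a not) summed to 157 to 199 FPKM in the wild-type pools and 116 to 129.9 in the MST1-deficient pools. Lymphoid and NK markers (7 of 18 listed, Cd3e and Ms4a1 not) summed to 29.7 to 58.9 and 20.4 to 27.1. Among them Klrc1 was lower in both MST1-deficient pools (19.7 and 22.3 FPKM in wild type against 3.98 and 4.34). Ncr1 was higher (5.41 and 4.93 against 9.86 and 7.63), and the other lymphoid and NK markers overlapped. Erythroid and megakaryocyte markers (7 of 16 listed, Gata1 and Klf1 not) summed to 76 to 90.3 and 51.5 to 74.6, and mature neutrophil markers (3 of 10 listed, S100a9 and Camp not) to 49.1 to 104 and 40.1 to 54.8. The Y chromosome genes Kdm5d, Uty, Ddx3y and Eif2s3y summed to 3.6 and 0 FPKM in the wild-type pools and to 23.4 and 14.8 in the MST1-deficient pools. The part of these differences in the values below was not tested. In bulk RNA, fewer cells of a type and less RNA per cell cannot be told apart.

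Of the 4 genes, Chd9 and Mllt10 had higher summed levels in both MST1-deficient pools than in both wild-type ones, Asxl1 had slightly lower ones, and Kmt2c overlapped. A level here is the summed FPKM, which divides estimated counts by transcript length and library total. Over all 3220 gene sums tested, 14.1% had both MST1-deficient pools above both wild-type ones and 18.8% had both below. The quasi-likelihood F-test of edgeR called 0.00% of the gene sums at an adjusted p under 0.05 (Benjamini-Hochberg), and the 4 genes had adjusted p between 0.175 and 0.992. At an unadjusted p under 0.05 edgeR gave 5.65% of gene sums, Chd9 and Mllt10 among them. DESeq2 called 1.43%, with Chd9 and Mllt10 among them, and limma on log2(FPKM + 0.5) called 0.186%, with Chd9 among them. Since the genes were chosen on this contrast, nothing is read from these counts.

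**Figure D1:**
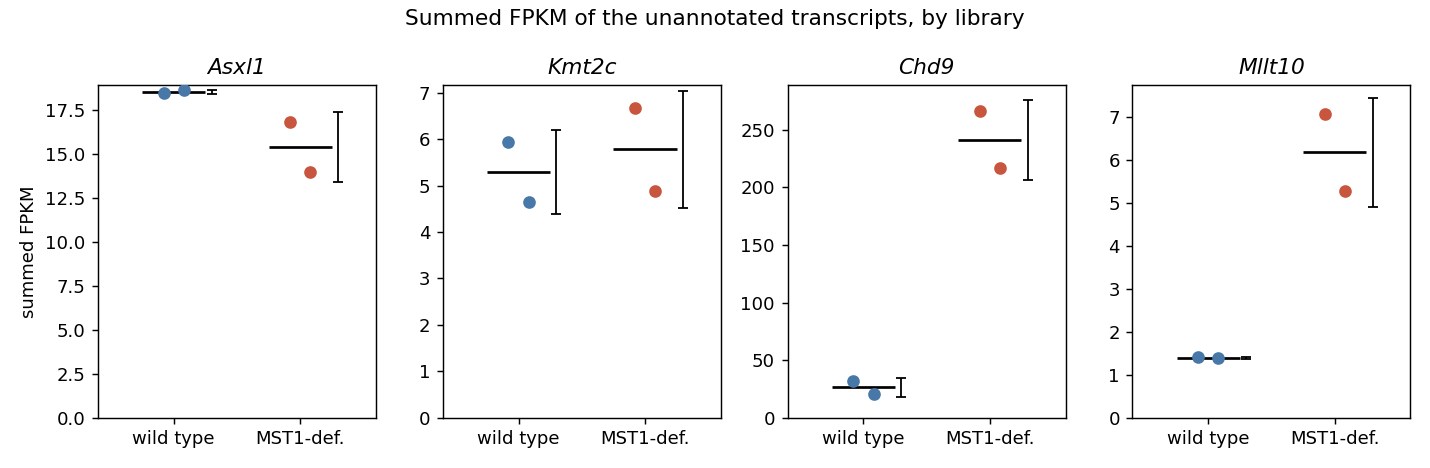
Summed FPKM of the unannotated transcripts of each gene (vertical axis, starting at 0, own scale per panel) in wild-type and MST1-deficient pools. Points are libraries, the horizontal line is the group mean and the bar beside it is the SD (n = 2); the points of Chd9 and Mllt10 in the MST1-deficient pools lie above all wild-type points, and those of Kmt2c overlap.

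Chd9 lies on chromosome 8 (90828302 to 91054516, GRCm38). Its summed level was 32.2 and 20.5 FPKM in wild-type replicates 1 and 2 and 266 and 217 FPKM in MST1-deficient replicates 1 and 2. The mean was 26.4 ± 8.22 FPKM in the wild-type pools and 241 ± 34.7 FPKM in the MST1-deficient pools (SD, n = 2), a 9.16-fold difference. On estimated counts the log2 fold change was 2.07 with an SE of 0.20, or 4.2-fold. Both MST1-deficient pools stood well above both wild-type ones on either scale.

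On counts, the difference lay in 1 of the 4 Chd9 transcripts, the shortest, of 1125 bases. It had 210 and 118 estimated counts in the wild-type pools and 1773 and 1813 in the MST1-deficient pools. Its FPKM was 26.6 and 16.1 in the wild-type pools and 259.9 and 213 in the MST1-deficient pools, and its log2 fold change on counts was 3.53 with an SE of 0.31. By FPKM it ranked 244 and 427 among the listed transcripts of the wild-type pools and 31 and 40 in the MST1-deficient ones. The groups did not overlap on either scale.

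The other 3 Chd9 transcripts, of 9986, 11380 and 11568 bases, summed to 439.9 and 323 counts in the wild-type pools and to 431 and 328 in the MST1-deficient pools. The ratio of the group means was 0.996 on counts and 0.994 on FPKM, and the groups overlapped. Summed without the short form, Chd9 thus showed no separation of the genotypes, but forms within this sum went in opposite directions. The form of 9986 bases had 407 and 304 counts in the wild-type pools and 264 and 284 in the MST1-deficient pools. Both MST1-deficient pools were thus lower (log2 fold change -0.31, SE 0.25). The form of 11380 bases had 18.4 and 18.9 counts against 167 and 44.2, so its MST1-deficient pools were both higher but lay far apart. The form of 11568 bases was listed in wild-type replicate 1 alone, at 14.1 counts.

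**Figure D2:**
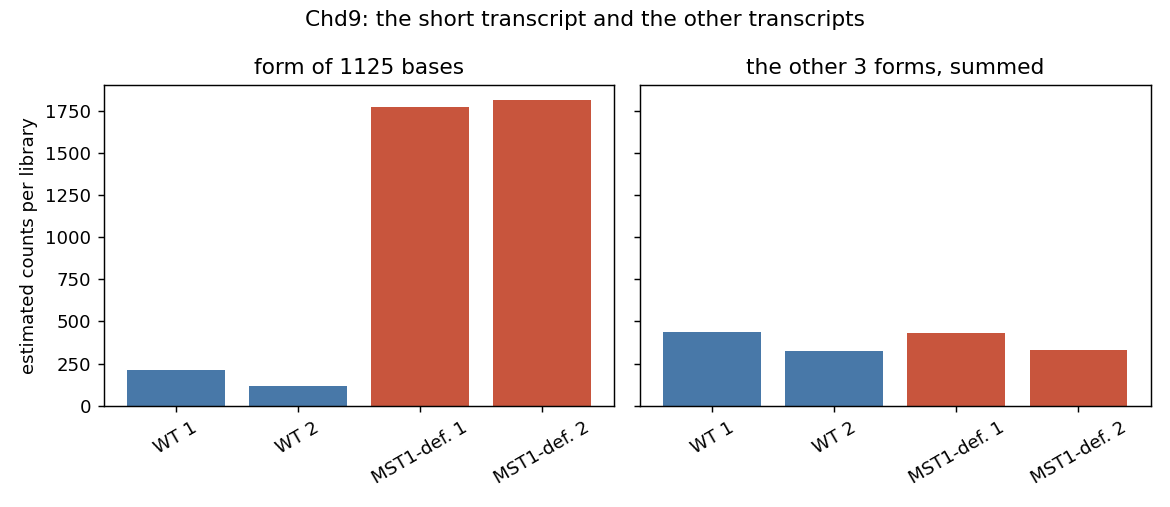
Estimated counts per library (vertical axis, starting at 0, shared by both panels) of the Chd9 transcript of 1125 bases (left) and of the other 3 Chd9 transcripts summed (right), with 1 bar per library, wild type in blue and MST1-deficient in red. The short form stands at 1773 and 1813 counts in the MST1-deficient pools against 210 and 118, while the sum of the others runs from 323 to 439.9 in both groups.

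The weight of the short form depended on the scale. It made up 82.8% and 78.6% of the Chd9 FPKM in the wild-type pools and 97.7% and 98.2% in the MST1-deficient pools. Of the Chd9 counts it made up 32.3% and 26.8% in the wild-type pools and 80.4% and 84.7% in the MST1-deficient pools. FPKM divides by length, so a short form weighs more in an FPKM sum than in a count sum. In GENCODE M21 (GRCm38) Chd9 has 15 annotated transcripts between 259 and 12008 bases, and the longest coding sequence measures 8658 bases. A transcript of 1125 bases is too short to hold it; no annotated Chd9 transcript has that length, and the nearest has 799 bases. No source used here gives the position of the short form within the gene. The 170 tested transcripts of 1000 to 1250 bases, of all genes, had a median log2 fold change of -0.07 (quartiles -0.52 and 0.31), beside -0.01 over all transcripts tested, so their median lay close to that of all transcripts.

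Mllt10 lies on chromosome 2 (18055160 to 18212390, GRCm38) and was the weakest of the 4 genes in wild type. Its summed level was 1.41 and 1.38 FPKM in the wild-type pools and 7.07 and 5.28 FPKM in the MST1-deficient pools. The means were 1.40 ± 0.0212 and 6.17 ± 1.27 FPKM (SD, n = 2), a 4.43-fold difference, and the log2 fold change on counts was 2.08 with an SE of 0.31. The wild-type pools nearly coincided, and both MST1-deficient pools were above them.

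In the group means, a form of 4937 bases made up the larger part of the Mllt10 difference, but the MST1-deficient pools differed in this. It had 0.48 and 0 estimated counts in wild type, both 0 when rounded, and 89.4 and 177 in the MST1-deficient pools. Against a floor of 3 counts per library it was at least 46-fold higher, on group means scaled for library size and not for each pool. It made up 38% and 81.8% of the Mllt10 FPKM in the MST1-deficient pools and 0.709% and 0% in wild type. In MST1-deficient replicate 1 more of the Mllt10 FPKM lay in the form of 5677 bases, at 62%, than in this one. GENCODE M21 annotates a Mllt10 transcript of 4917 bases, 20 bases shorter, which holds the longest coding sequence (3207 bases).

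The other 3 Mllt10 forms, of 5558, 5677 and 5703 bases, lay within 145 bases of each other, and the libraries differed in which of them was listed. The form of 5703 bases was listed in wild-type replicate 2 alone (51.3 counts), where it made up 89.9% of the Mllt10 FPKM. The form of 5558 bases led in wild-type replicate 1 (39.2 counts) and had 4.42, 0 and 2.38 counts in wild-type replicate 2 and MST1-deficient replicates 1 and 2. The form of 5677 bases had 21.6 and 1.4 counts in the wild-type pools and 168 and 43 in the MST1-deficient pools. Summed, the 3 forms had 60.8 and 57.1 counts in the wild-type pools and 168 and 45.4 in the MST1-deficient pools, so the groups overlapped: MST1-deficient replicate 1 was highest and replicate 2 lowest (log2 fold change 0.92, SE 0.73).

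Chd9 and Mllt10 were the genes with higher sums in both MST1-deficient pools, so windows at start sites listed for them are shown as sequence context. The windows come from RefSeq (GRCm38.p6) and run from 250 bases before to 50 bases after a start, and 7 such windows matched the 4 genes. Those shown are written 5′ to 3′ on the plus strand. Capitals mark matches, on either strand, to the motif GGAATG of TEAD factors, the DNA-binding partners of the Hippo pathway, AGATAA of GATA factors, TGTGGT of RUNX factors, GAGGAAG of PU.1 or TTGCNNAA of C/EBP factors, and no match below overlaps another. Shown are the first of 2 Chd9 windows, chr8:90828585-90828884, and the 2 of 3 Mllt10 windows that hold a match, chr2:18055478-18055777 and chr2:18064335-18064634. Their start sites, 90828835 for Chd9 and 18055728 and 18064585 for Mllt10, lie inside the gene spans given above and not at the first base of the gene.
Chd9: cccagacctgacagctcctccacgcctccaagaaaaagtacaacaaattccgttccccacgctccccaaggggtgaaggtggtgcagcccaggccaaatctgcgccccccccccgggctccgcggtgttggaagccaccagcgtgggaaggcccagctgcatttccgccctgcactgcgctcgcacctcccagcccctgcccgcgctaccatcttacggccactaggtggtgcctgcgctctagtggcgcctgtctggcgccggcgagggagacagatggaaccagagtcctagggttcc
Mllt10, window with RUNX and C/EBP matches: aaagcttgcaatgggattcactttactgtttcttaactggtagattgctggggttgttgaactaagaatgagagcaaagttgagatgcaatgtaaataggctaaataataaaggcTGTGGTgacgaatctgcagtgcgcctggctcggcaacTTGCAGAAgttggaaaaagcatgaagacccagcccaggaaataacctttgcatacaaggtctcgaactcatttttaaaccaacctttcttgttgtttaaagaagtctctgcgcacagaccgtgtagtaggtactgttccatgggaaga
Mllt10, window with a PU.1 match: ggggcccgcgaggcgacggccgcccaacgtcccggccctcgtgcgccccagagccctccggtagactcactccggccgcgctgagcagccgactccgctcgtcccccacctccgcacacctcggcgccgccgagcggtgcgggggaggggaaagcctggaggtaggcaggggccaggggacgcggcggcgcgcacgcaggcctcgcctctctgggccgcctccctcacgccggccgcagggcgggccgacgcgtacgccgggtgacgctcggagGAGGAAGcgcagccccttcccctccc

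The Chd9 window shown held 0 of the motifs and 19 CpG dinucleotides, and the Chd9 window not shown held 1 CpG, against a median of 7 over 32851 windows of this length. The Mllt10 window with the RUNX and C/EBP matches held 6 CpG dinucleotides, and the one with the PU.1 match held 43. Over the 7 windows of the 4 genes, the TEAD motif was found in 0, the GATA motif in 0, the RUNX motif in 2, the PU.1 motif in 1 and the C/EBP motif in 1. Of all windows, 14.7% held the TEAD motif, 11.2% the GATA motif, 16.8% the RUNX motif, 13.6% the PU.1 motif and 10.8% the C/EBP motif. A match is a run of letters only, and no source used here gives where the unannotated transcripts begin.

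Kmt2c lies on chromosome 5 (25271795 to 25498855, GRCm38) and had 7 unannotated transcripts, a number that 26 of 5058 genes reached. Its summed level was 5.94 and 4.65 FPKM in the wild-type pools and 6.67 and 4.89 FPKM in the MST1-deficient pools. The groups overlapped, and the log2 fold change on counts was 0.18 with an SE of 0.23. The form of 13762 bases, present in every library, had 286 and 348 counts in the wild-type pools and 186 and 414 in the MST1-deficient pools, with the MST1-deficient pools on both sides of the wild-type ones.

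Beside it, 5 Kmt2c forms between 16883 and 17101 bases were listed, and the libraries differed in which of them carried the counts. The form of 16883 bases had 209.6 and 141 counts in the wild-type pools and was at 0 in each MST1-deficient pool. Against a floor of 3 counts per library it was at least 55.6-fold lower, on group means scaled for library size and not for each pool. It made up 26.4% and 24.5% of the Kmt2c FPKM in wild type. The form of 17031 bases had 164 and 0 counts in the wild-type pools and 235 and 151 in the MST1-deficient pools. The form of 17016 bases had 41.5 and 0 counts against 239 and 0, and the form of 17101 bases had 21.7 and 0 against 45.6 and 12.4. In wild-type replicate 2 the form of 16883 bases was the only one of the 5 listed, and in MST1-deficient replicate 2 most of the counts lay in the form of 17031 bases.

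Summed, the 5 long Kmt2c forms had 437 and 141 counts in the wild-type pools and 527 and 163 in the MST1-deficient pools. The replicates of a genotype differed by more than the genotypes did, and the summed values overlapped (log2 fold change 0.39, SE 0.75). The form of 16994 bases reached 7.55 counts at most. The form of 6494 bases had 2.58 and 2.73 counts in the wild-type pools and 8.21 and 10.1 in the MST1-deficient pools, between 0.842% and 3.89% of the Kmt2c FPKM. The longest coding sequence of Kmt2c in GENCODE M21 measures 14715 bases in 59 exons, so the forms of 13762 and 6494 bases are too short to hold it, while the 5 long forms exceed it.

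Asxl1 lies on chromosome 2 (153345830 to 153404007, GRCm38) and had 3 unannotated transcripts. Its summed level was 18.4 and 18.6 FPKM in the wild-type pools and 16.8 and 14 FPKM in the MST1-deficient pools. Both MST1-deficient pools lay below both wild-type ones, and the log2 fold change on counts was -0.21 with an SE of 0.17. The form of 6479 bases was the largest in every library, with 575 and 715 counts in the wild-type pools and 455 and 556 in the MST1-deficient pools.

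The genotypes differed in which of 2 forms of nearly equal length was listed beside it. The form of 6994 bases had 386 and 172 counts in the wild-type pools and was at 0 in each MST1-deficient pool. Against the floor of 3 counts per library it was at least 87.1-fold lower, on group means scaled for library size and not for each pool. The form of 6965 bases, 29 bases shorter, had 0 in both wild-type pools and 303 and 215 counts in MST1-deficient ones. By the same measure of group means it was at least 89.3-fold higher. No library listed both of these forms.

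Added together, these 2 Asxl1 forms did not separate the genotypes. Their sum was 386 and 172 counts in the wild-type pools and 303 and 215 in the MST1-deficient pools, with both MST1-deficient values between the wild-type ones. The log2 fold change of the sum was 0.01 with an SE of 0.42. Their joint share of the Asxl1 FPKM was 38.3% and 18.2% in the wild-type pools and 38.2% and 26.4% in the MST1-deficient pools. GENCODE M21 annotates Asxl1 transcripts of 6981 and 6968 bases, within 13 and 3 bases of the 2 forms. The longest annotated coding sequence, of 4545 bases in the transcript of 6968 bases, is shorter than each of the 3 forms. Forms so close in length can share most of their bases, and no source used here gives the method that divided reads among forms of a gene, or where these forms differ. The part of that division in the listing of either form was not tested.

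**Figure D3:**
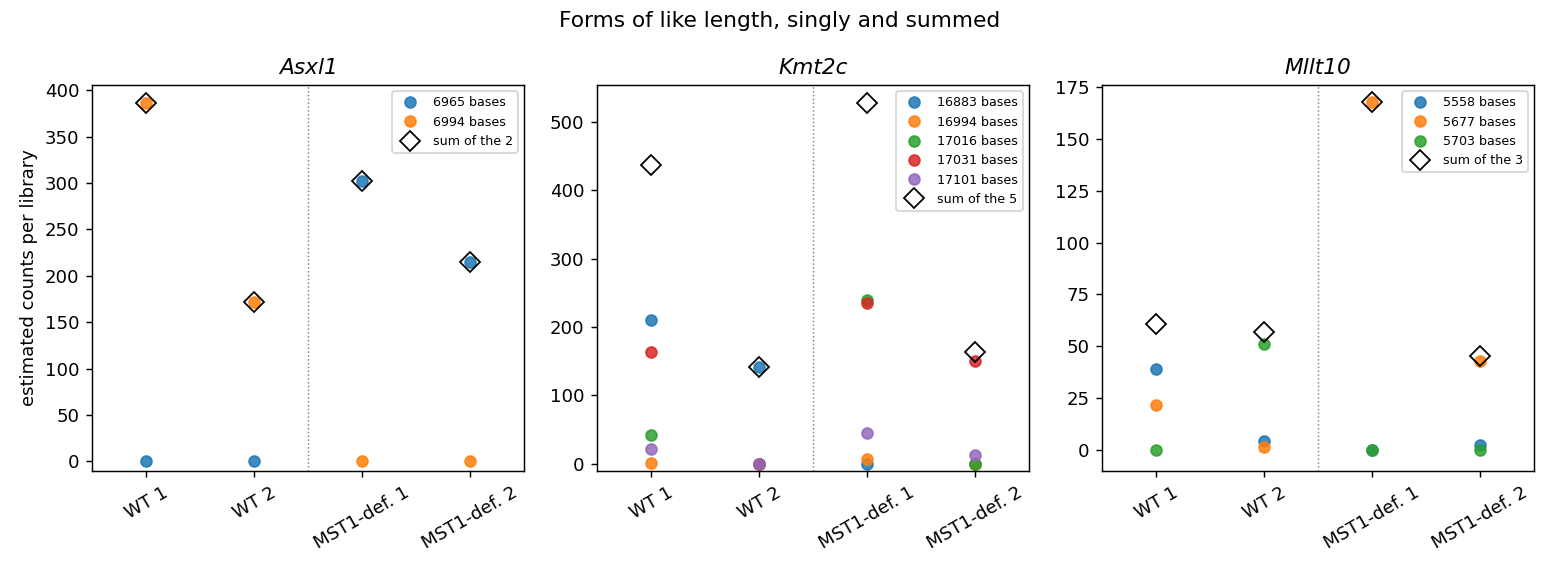
Estimated counts per library (vertical axis) of the transcripts of like length of Asxl1, Kmt2c and Mllt10 (filled points, 1 colour per length in bases) and of their sum (open diamonds), with wild-type pools left of the dotted line and MST1-deficient ones right of it. Single forms of Asxl1 and Kmt2c are at 0 in 1 genotype, while the sums of the forms of like length overlap between the genotypes in all 3 genes.

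Across the 4 genes, 2 of 18 transcripts were listed in both wild-type and neither MST1-deficient pool (Asxl1, 6994 bases, and Kmt2c, 16883 bases) and 1 in both MST1-deficient and neither wild-type pool (Asxl1, 6965 bases). Over all 8219 transcripts these patterns took 1.97% and 2.23%. Each of the 3 had another form of its gene, of like length, in the other genotype, where like length means a chain of neighbours at most 250 bases apart. In the whole series this held for 27.8% of the 162 transcripts of wild type alone and for 31.1% of the 183 of MST1-deficient pools alone. Of the genes with an NCBI gene number, 66% had 1 unannotated transcript and so no other form to match. Asxl1 had 3 and Kmt2c had 7, so these shares are not a matched background. The chain length was chosen after the values were seen.

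Of the 18 transcripts, 7 were listed in all 4 libraries and 2 in 1 library. The filter of at least 1 FPKM in at least 2 libraries passed 9 of them. The edgeR test called 0.00% of 4661 transcripts, and the 9 had adjusted p between 0.341 and 0.999. At an unadjusted p under 0.05 it gave 5.26% of transcripts and 5 of the 9: the Asxl1 forms of 6994 and 6965 bases, the Kmt2c form of 16883 bases, the Chd9 form of 1125 bases and the Mllt10 form of 4937 bases. DESeq2 called 2.35% of the transcripts with an adjusted p and the same 5, and limma called 0.129% and 0 of the 9. Of these 5, all but the Chd9 form reached 1 FPKM in a single genotype. The filter thus passed them only through the pools where they were high. The genes were also chosen on this contrast, so these counts describe the choice and the filter.

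**Figure D4:**
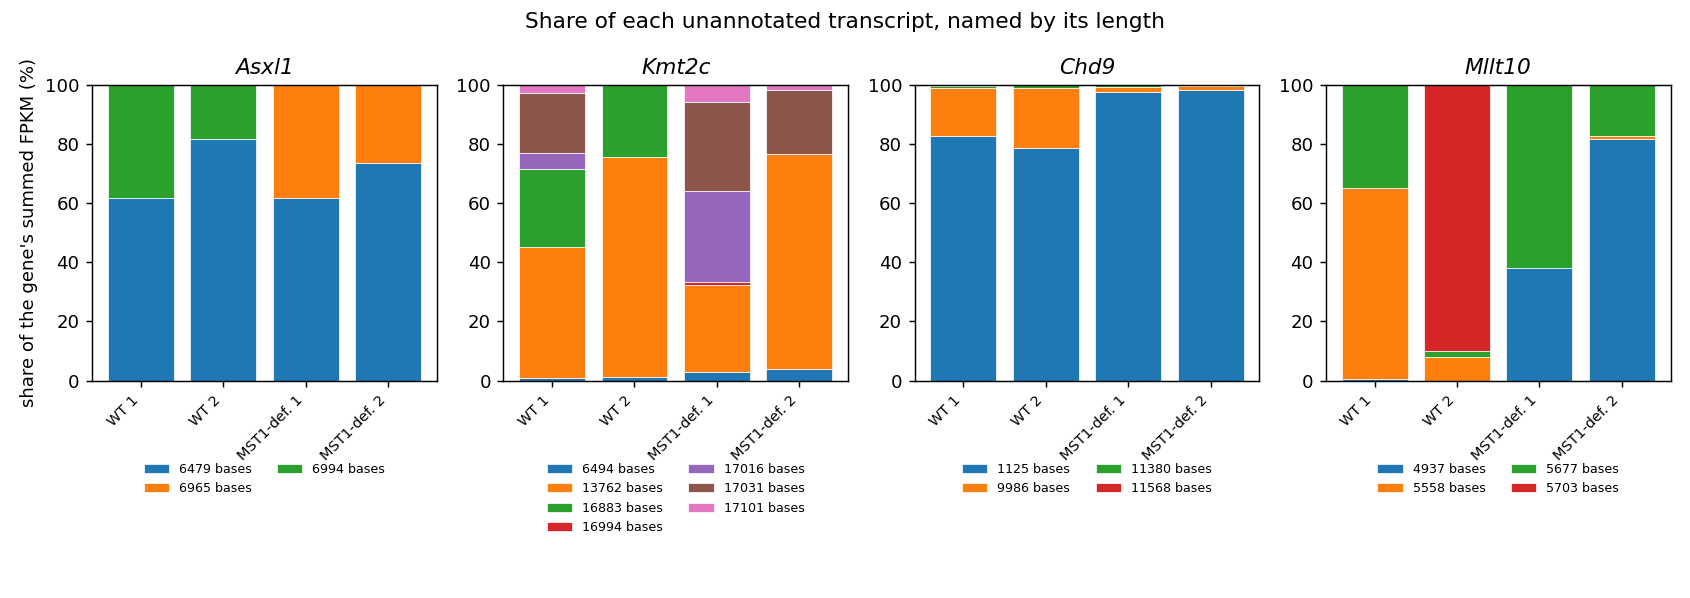
Share of each unannotated transcript in the summed FPKM of its gene (vertical axis, percent, stacked to 100) in the 4 libraries, with 1 colour per transcript, named by its length in bases. The short Chd9 form fills 97.7% and 98.2% of the MST1-deficient bars, and the Asxl1 bars show the form of 6994 bases in the wild-type pools and the form of 6965 bases in its place in the MST1-deficient pools.

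Partners and relatives of the 4 genes, and other chromatin genes, were described from 6 lists, with the 4 themselves left out. Of 85 such genes, 49 had an unannotated transcript and 35 could be tested. The number that passed edgeR was 0 in either direction, and DESeq2 and limma called 0 as well. At an unadjusted p under 0.05 there were 2, both higher in MST1-deficient cells. The median log2 fold change of the 35 was 0.12, beside 0.01 over all gene sums. Over all gene sums 5.65% had such a p, so the companion genes reached it at about the share of genes in general. Of the 35, 24 had positive and 11 negative differences, beside 1646 and 1574 over all gene sums. The groups did not overlap in 5 of the 35, against 453 higher and 605 lower of all 3220 gene sums (14.1% and 18.8%). Cbx7, Mtf2, Rbbp4 and Bcorl1 had both MST1-deficient pools higher and Crebbp, an acetyltransferase gene, had both lower, at 5.44 and 4.26 FPKM against 6.79 and 5.87 in wild type (log2 fold change -0.33, SE 0.23). Rbbp4, Bcorl1 and Crebbp were named after their values were seen.

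Partners of Asxl1 and Bap1 gave 2 tested genes of 10. Ogt, the enzyme that attaches N-acetylglucosamine to proteins, had 26.4 and 12.9 FPKM in the wild-type pools and 31.3 and 8.72 FPKM in the MST1-deficient pools. Mbd6, a subunit of the complex, had 4.94 and 4.05 against 5.51 and 4.16 FPKM, and Mbd5, which did not reach the filter, had 0.86 and 0.97 against 2.44 and 0.79 FPKM. In all 3 the groups overlapped.

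Among the KMT2 methyltransferases and their subunits, 6 of 17 genes were tested, and 0 had an unadjusted p under 0.05. Kmt2b had 30 and 22.3 FPKM in the wild-type pools and 25.5 and 22.7 FPKM in the MST1-deficient pools. Rbbp5, a core subunit, had 18 and 9.65 against 13.8 and 14.6 FPKM. Kmt2d, the close relative of Kmt2c, had 5.94 and 1.69 against 4.89 and 4.44 FPKM (log2 fold change 0.38, SE 0.57). In these 3 the groups overlapped too.

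The CHD family gave 7 tested genes of 8 beside Chd9, 4 with positive and 3 with negative differences and a median log2 fold change of 0.06. Chd4, the remodeller of the NuRD complex, had 30.8 and 26.3 FPKM in the wild-type pools and 32.6 and 29.3 FPKM in the MST1-deficient pools. Chd3 had 11.6 and 12.3 against 13.3 and 7.75 FPKM, and Chd2 had 11.6 and 9.65 against 10.5 and 7.98 FPKM. None of the 7 had separate groups. Those of Chd9, which was chosen on this contrast, were separate with its form of 1125 bases and overlapped without it. Whether Chd9 differed from its family was not tested.

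The Dot1l complex and its elongation partners gave 3 tested genes of 12. Dot1l, the histone H3 methyltransferase that Mllt10 assists, had 12.7 and 11 FPKM in the wild-type pools and 13.4 and 11.4 FPKM in the MST1-deficient pools (log2 fold change 0.12, SE 0.17). Cdk9, the kinase of transcription elongation, had 8.19 and 5.73 against 8.11 and 3.79 FPKM, and Aff1, a fusion partner gene in leukaemia, had 7.34 and 0 against 5.72 and 5.38 FPKM. The values of all 3 overlapped between the genotypes.

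The 2 companion genes at an unadjusted p under 0.05 belonged to the Polycomb list, of which 8 of 21 genes were tested. Cbx7, a reader of Polycomb-marked histone H3, had 1.12 and 1.52 FPKM in the wild-type pools and 7.9 and 4.18 FPKM in the MST1-deficient pools, with a log2 fold change of 2.16, an SE of 0.46 and an adjusted p of 0.501 (edgeR). Mtf2, a cofactor of Ezh2, had 4.78 and 2.59 against 7.59 and 7.12 FPKM, with a log2 fold change of 1.06, an SE of 0.37 and an adjusted p of 0.844. Neither passed the threshold. Ezh2, the methyltransferase of the complex, had 14.2 and 15.8 against 11.8 and 14.9 FPKM, and Phf1, another cofactor of Ezh2, had 9.22 and 13.2 against 8.73 and 9.43 FPKM. The histone-binding subunit gene Rbbp4 had 3.38 and 3 against 5.87 and 3.88 FPKM (log2 fold change 0.64, SE 0.32).

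Other chromatin genes mutated in myeloid disease gave 9 tested genes of 17, with a median log2 fold change of 0.06. The acetyltransferase gene Ep300 had 12.6 and 16.1 FPKM in the wild-type pools and 8.18 and 13.7 FPKM in the MST1-deficient pools. Nsd1, a histone H3 methyltransferase gene with 9 unannotated transcripts, had 11.8 and 9.71 against 12 and 9.16 FPKM. The cohesin gene Stag2 had 6.19 and 7.32 against 6.05 and 10.4 FPKM. The groups overlapped in these 3 as well.

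The gene sums nearest to each of the 4 genes in profile were found among 3219 others over the 4 libraries, by the Euclidean distance of log2(FPKM + 0.5) values centred on each gene's mean. For Chd9 they were Ssr4 (distance 0.47), Kdm5d (0.74) and Cc2d1a (0.77). Ssr4 and Cc2d1a were at 0 in both wild-type pools, and Kdm5d, a Y chromosome gene, had 0.02 and 0 FPKM in the wild-type pools and 2.59 and 3.19 FPKM in the MST1-deficient pools. For Mllt10 they were gene 100190996 (0.28), Rfng (0.33) and Klra14-ps (0.38). For Kmt2c they were Ptbp2 (0.02), Tra2b (0.04) and Ankrd11 (0.05), each with its highest value in MST1-deficient replicate 1. For Asxl1 they were Tbc1d23 (0.05), Ppil2 (0.05) and Usp7 (0.06), each with its lowest value in MST1-deficient replicate 2. The nearest genes lay closer for Kmt2c and Asxl1 than for Mllt10 and Chd9. With 4 libraries, genes can lie close in profile without being related.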

How the data were processed

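For each unannotated transcript the authors deposited an estimated count (expected count), not normalised, and an FPKM value, the count scaled to length and depth, per the file headers. Per the submitters' processing notes, reads were placed on mm10; no source used here gives the aligner, assembler, estimator or annotation. FPKM values implied a length reduced by 126 to 138 bases. Symbols and positions came from RefSeq GRCm38.p6 (5051 of 5058 genes matched), annotated lengths from GENCODE M21, both on the same build.

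Estimated counts were rounded and tested in edgeR 4.0.16 by its quasi-likelihood F-test with TMM factors (2-sided) over all transcripts and all gene sums with FPKM of at least 1 in at least 2 libraries, with Benjamini-Hochberg adjustment and a threshold of 0.05. The SE given with a log2 fold change is the absolute log2 fold change divided by the square root of the F statistic. It is not an SE estimated by the model. Alternatives used DESeq2 1.42.0, limma 3.58.1, RLE factors, other pseudocounts and filters, a replicate block, and each library left out. With 2 libraries per group, an adjusted p above the threshold does not show that a feature was unchanged. P-values set the difference between groups against a spread between pools, 2 per group, that was moderated over the features tested. Spread between single mice was not measured, since each library was a pool. PCR copies were not marked, so floors cover counting error only. An exact permutation test of 2 against 2 cannot go below 0.33.

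Members and lists were chosen with earlier results of these data known. Named were all transcripts of the 4 genes, and per list the 3 highest genes by mean FPKM and those with an unadjusted p under 0.05, and for each of the 4 genes the 3 gene sums of nearest profile. Tables of unannotated genes were not used here.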

Additional observations from a re-analysis of the deposited data

How the results depend on the processing

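Of 68 gene-level values of the 4 genes under the alternatives, 66 kept their sign and 59 moved by less than the SD between replicates. The exceptions in sign were the Kmt2c log2 ratio of mean FPKM without wild-type replicate 2 (-0.04) and without MST1-deficient replicate 1 (-0.11). Asxl1, Chd9 and Mllt10 did not overlap between genotypes in summed FPKM, so leaving out a library could not change the sign of their ratios. The genes were chosen on this contrast, so the kept signs are a description and no support. The Chd9 log2 fold change was 3.20, 3.22 and 3.17 on FPKM with limma at pseudocounts of 0.5, 0.1 and 1, and that of Mllt10 was 1.80 and 1.57 with limma at pseudocounts of 0.5 and 1. With single libraries left out, the log2 ratio of mean FPKM ran from -0.41 to -0.14 for Asxl1, from -0.11 to 0.33 for Kmt2c, from 2.91 to 3.56 for Chd9 and from 1.92 to 2.34 for Mllt10. The number of transcripts past the threshold, 0 with edgeR, was 103 with DESeq2, 6, 4 and 6 with limma at pseudocounts of 0.5, 0.1 and 1, 1 with a minimum of 5 FPKM, and 1 with forms of like length joined (chosen after seeing the data). The number of gene sums was 46 with DESeq2, 6, 2 and 7 with limma in the same order, and 2 with a minimum of 5 FPKM. With the replicate number as a block, edgeR called 0 transcripts and 0 gene sums, and the log2 fold change was 2.08 for Chd9, 2.08 for Mllt10, 0.18 for Kmt2c and -0.21 for Asxl1. The differences between replicates 1 and 2 correlated at 0.127 between the groups over 3220 gene sums, and with 2 pairs the numbers were not taken to pair the pools.

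Of 60 differences in share over 12 forms, 53 kept their sign. The genes were chosen on these shares, so this count is no support. The Asxl1 forms of 6994 and 6965 bases and the Kmt2c form of 16883 bases were each listed in a single genotype. Their signs could not change. The FPKM shares of the Chd9 forms of 1125 and 9986 bases did not overlap between genotypes. Nor did those of the Kmt2c form of 17031 bases and the Mllt10 form of 4937 bases. Leaving out a library could not change the sign of any of these. The difference of the Chd9 form of 1125 bases was 17.3 percentage points of FPKM and 53 of counts. Without wild-type replicate 2 the difference of the Asxl1 form of 6479 bases was 6 percentage points in place of -4.04, and it was 1.83 without MST1-deficient replicate 1. In the same order, the Kmt2c form of 13762 bases was at 6.89 and 13.6 in place of -8.07. Without MST1-deficient replicate 1, the Kmt2c form of 17016 bases was at -2.61 in place of 12.8. The Mllt10 form of 5677 bases was then at -1.23 in place of 21.1. The Chd9 form of 11380 bases was at -0.36 on FPKM and 1.26 on counts. With 2 libraries per group and between 6913792 and 8518856 implied counts in each, forms near the floor of 3 counts could not be told from absent ones.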
